A study of Macaca mulatta with 449 samples.

Results

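The amygdala and the hippocampus lie side by side in the medial temporal lobe, and their transcriptomes were compared here within each of 8 rhesus macaques. From the gene count table, the library of the amygdala (AMY) was set against the sum of the libraries of the dentate gyrus (DG), CA1 and CA3 (HIP) of the same animal. This took 32 of the 408 libraries of the table, and 449 samples belong to the series in all. The study measured RNA in sub-regions dissected across the macaque brain by Ribo-zero RNA-seq, in which ribosomal RNA is removed before sequencing. The animals are healthy, with no treatment given in the labels, and carry the numbers 2, 3, 4, 6, 7, 8, 10 and 11 there. Males were animals 2 and 3 (mid-aged, both 10 years) and 7 and 8 (young, 4 and 3.8 years). Females were animals 6 and 11 (mid-aged, 10 and 9.8 years) and 4 and 10 (young, 3.2 and 5 years). The sub-regions are pieces of tissue with all of their cell types, so fewer cells of a type and less RNA per cell cannot be told apart in any value below.

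The amygdala is a cluster of nuclei of mixed origin. Its basolateral nuclei hold glutamatergic neurons related to those of the cortex, and its central and medial nuclei hold mainly GABAergic neurons related to those of the striatum. It is known for emotional learning, fear and social behaviour, and it exchanges signals with the hypothalamus and brainstem through peptides and monoamines. The hippocampus is a folded sheet of cortex with a fixed circuit from the granule cells of DG to the pyramidal cells of CA3 and CA1, and it is known for memory of events and places. Region identity in such tissues is carried by transcription factors, and the way each region answers to transmitters by its set of receptors and channels, so the results are ordered from identity genes to signalling genes.

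Each of the 32 libraries held 8143457 to 13795178 counts on genes (median 10369911), with 8761421 to 12259346 in AMY and 26206156 to 36624969 in the HIP sums. Levels are given as CPM, counts relative to the library size after TMM scaling, and CPM of different genes are not compared because they are not divided by gene length. The AMY libraries of animals 3, 8 and 10 stood apart, with a median correlation of 0.936 to 0.961 with the other AMY libraries against 0.971 to 0.973 for the other 5. The DG, CA1 and CA3 libraries of animal 4 were each the least alike of their 8, at 0.944 to 0.956. Counts of genes are therefore also given without these 4 animals, a choice made after the data were seen. Animals 4, 8 and 10 are young, so animal 7 is then the only young animal left.

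About as many genes were higher in AMY as in HIP. Of 15402 genes tested, 500 were higher in AMY (3.25%) and 451 were higher in HIP (2.93%), at a false discovery rate (FDR) under 0.05 and a fold above 2 in edgeR's quasi-likelihood test with the animal as a block. Without animals 3, 4, 8 and 10, the counts were 571 and 522. All 8 animals had the same direction for 433 of the 500 and for 390 of the 451. The levels of the 8 AMY and the 8 HIP libraries did not overlap for 297 and 283 of them, beside 1188 of all genes tested (7.71%). A fold above 4 was reached by 122 genes in AMY and 112 in HIP. The median log2 fold change (log2FC, AMY minus HIP) over all genes tested was -0.01. These shares and this median are the background for the counts of each gene list below, whose members were not tested as a set.

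**Figure D1:**
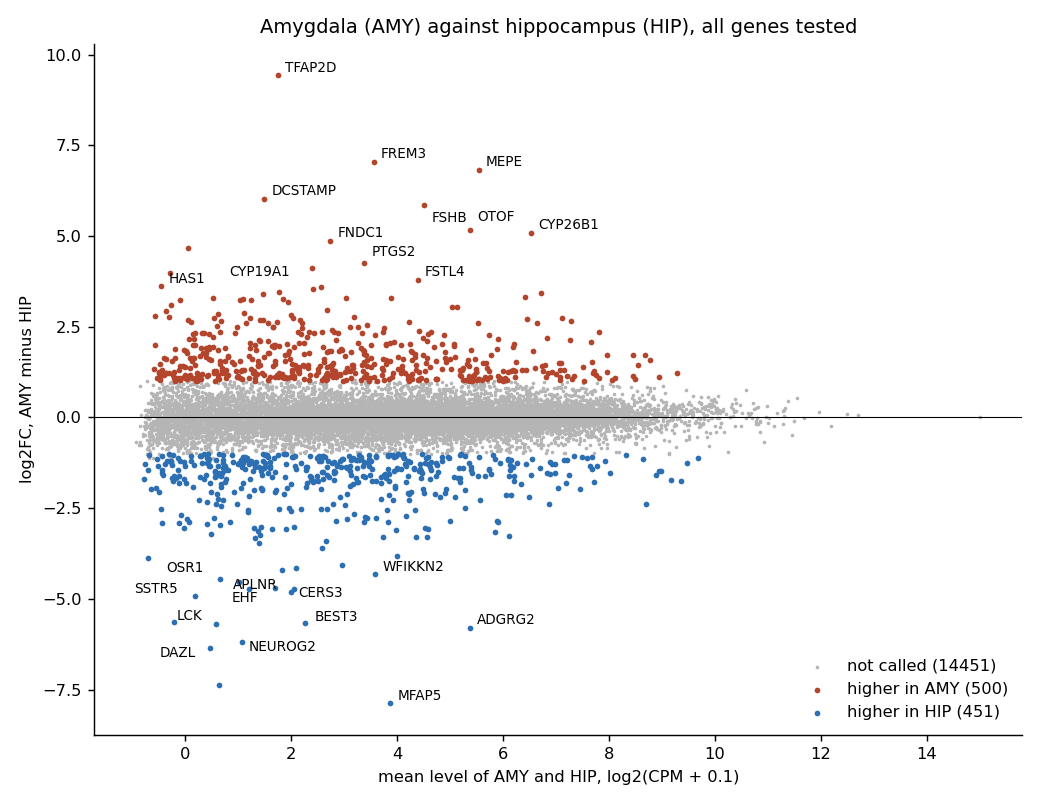
Each point is 1 of 15402 genes, with its mean level in the amygdala and hippocampus on the horizontal axis (log2 of CPM + 0.1) and its log2FC, AMY minus HIP, on the vertical axis. The 500 genes higher in AMY (red) reach a fitted log2FC of 9.43 (TFAP2D, with 1 count in HIP) and the 451 higher in HIP (blue) reach -7.88, and the 24 genes with the largest differences by the naming rule carry their symbols.

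The genes most strongly higher in AMY were led by TFAP2D (ENSMMUG00000002867), an AP-2 family transcription factor. It was measured at 2.15 to 10.6 CPM in AMY (median 6.02) and 0 to 0.0287 CPM in HIP (median 0). The 8 HIP sums held 1 count of it together, against 566 counts in the 8 AMY libraries, a ratio of 1737 with a 95% counting interval of 310.4 to 68715. DCSTAMP (ENSMMUG00000010760), known for cell fusion in bone-resorbing cells, was at 3.22 to 8.42 CPM in AMY (median 5.47) and 0.0287 to 0.164 CPM in HIP (median 0.0600), with log2FC 6.02 ± 0.28 SE, FDR = 1.51e-07. CYP26B1 (ENSMMUG00000012141), an enzyme that degrades retinoic acid, was at 115 to 249.7 CPM in AMY (median 187) and 2.81 to 8.12 CPM in HIP (median 5.15), with log2FC 5.08 ± 0.23 SE, FDR = 1.02e-07. In these 3 genes the lowest AMY library was above the highest HIP library. CYP19A1 (ENSMMUG00000002553), the aromatase that makes oestrogens from androgens, was at 4.93 to 14.3 CPM in AMY (median 9.54) and 0.374 to 0.750 CPM in HIP (median 0.494), with log2FC 4.11 ± 0.20 SE, FDR = 1.93e-07. OTOF (ENSMMUG00000014292), the calcium sensor for vesicle release in hair cells, was at 54.1 to 107 CPM in AMY (median 82.8) and 0.60 to 3.93 CPM in HIP (median 1.75), with log2FC 5.18 ± 0.33 SE, FDR = 9.55e-07.

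FSHB (ENSMMUG00000042298) encodes the beta subunit of follicle-stimulating hormone, a hormone of the anterior pituitary. It was at 22.6 to 79.9 CPM in AMY (median 40.6) and 0.411 to 2.16 CPM in HIP (median 0.598), with log2FC 5.85 ± 0.29 SE, FDR = 2.33e-07. All 8 animals had at least 22.6 CPM in AMY and at most 2.16 CPM in HIP. Whether reads of another transcript are counted on this gene was not tested. In the pituitary libraries of the same animals it lay between 5.27 and 1300.3 CPM (median 53.3). Other pituitary genes, chosen after the values of FSHB were seen, were each set against their own levels in HIP or the pituitary. CGA, the alpha subunit that pairs with FSHB in the hormone, was at most 0.264 CPM in AMY and between 839 and 5367 CPM in the pituitary. PRL (prolactin) had a median of 0 CPM in AMY and a highest value of 10.5 CPM, against at least 26139 CPM in the pituitary. LHB, the beta subunit of luteinizing hormone, was at 0.185 to 9.04 CPM in AMY and 0.576 to 3.88 CPM in HIP, which overlap, and POU1F1, a pituitary transcription factor, had medians of 1.80 and 1.31 CPM against 674 CPM in the pituitary.

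The other genes named for AMY were FREM3 (7.05 ± 0.22), a protein of the extracellular matrix, MEPE (6.83 ± 0.40), a matrix phosphoglycoprotein of bone, FNDC1 (4.87 ± 0.25), PTGS2 (4.25 ± 0.21), the inducible cyclooxygenase, FSTL4 (3.79 ± 0.13) and HAS1 (3.62 ± 0.35), a hyaluronan synthase, each given as log2FC ± SE. MEPE was at 47.4 to 178 CPM in AMY (median 78.9) and 0.164 to 2.40 CPM in HIP (median 0.695). HAS1 had at most 1.79 CPM in AMY. In all 6 genes every AMY library was above every HIP library.

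In the other direction, MFAP5 (ENSMMUG00000010747), a protein of extracellular microfibrils, was at 3.80 to 59.8 CPM in HIP (median 30.2) and 0 to 0.587 CPM in AMY (median 0), with log2FC -7.88 ± 0.35 SE, FDR = 1.05e-07. ADGRG2 (ENSMMUG00000020515), an adhesion G protein-coupled receptor, was at 52.6 to 108 CPM in HIP (median 80.7) and 0.715 to 4.33 CPM in AMY (median 1.23), with log2FC -5.80 ± 0.19 SE, FDR = 2.02e-08. BEST3 (ENSMMUG00000004786), a bestrophin chloride channel, was at 3.25 to 13.3 CPM in HIP (median 9.45) and 0 to 0.318 CPM in AMY (median 0.168), with log2FC -5.67 ± 0.18 SE, FDR = 2.02e-08. Both structures were fully separate for these genes, although 1 AMY library (animal 2) had 4.33 CPM of ADGRG2 where the next had 1.57 CPM. NEUROG2 (ENSMMUG00000014078), a proneural transcription factor of the developing cortex, was at 2.69 to 5.01 CPM in HIP (median 4.07) and 0 to 0.176 CPM in AMY (median 0), with log2FC -6.18 ± 0.41 SE, FDR = 1.42e-06. DAZL (ENSMMUG00000011361), an RNA-binding protein known from germ cells, had 642 counts in the 8 HIP sums and 2 counts in the 8 AMY libraries, a ratio of 105 with a 95% counting interval of 28.8 to 866.

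The remaining genes named for HIP encode signalling, transcription and lipid proteins. LCK (-5.69 ± 0.41), a kinase of T cells, SSTR5 (-4.93 ± 0.44), a somatostatin receptor, OSR1 (-4.47 ± 0.31), an odd-skipped zinc finger factor, and EHF (-4.70 ± 0.32), an ETS factor of epithelia, had HIP medians of 2.82, 1.58, 2.72 and 6.06 CPM. CERS3 (-4.81 ± 0.53), a ceramide synthase, and APLNR (-4.72 ± 0.39), the apelin receptor, spread widely in HIP, at 3.51 to 16.7 and 2.87 to 23.2 CPM. WFIKKN2 (-4.33 ± 0.40), a secreted binder of myostatin-like factors, was at 14.3 to 33.6 CPM in HIP (median 19) and 0.238 to 4.34 CPM in AMY (median 0.568). Every HIP library was above every AMY library in these 7 genes too.

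**Figure D2:**
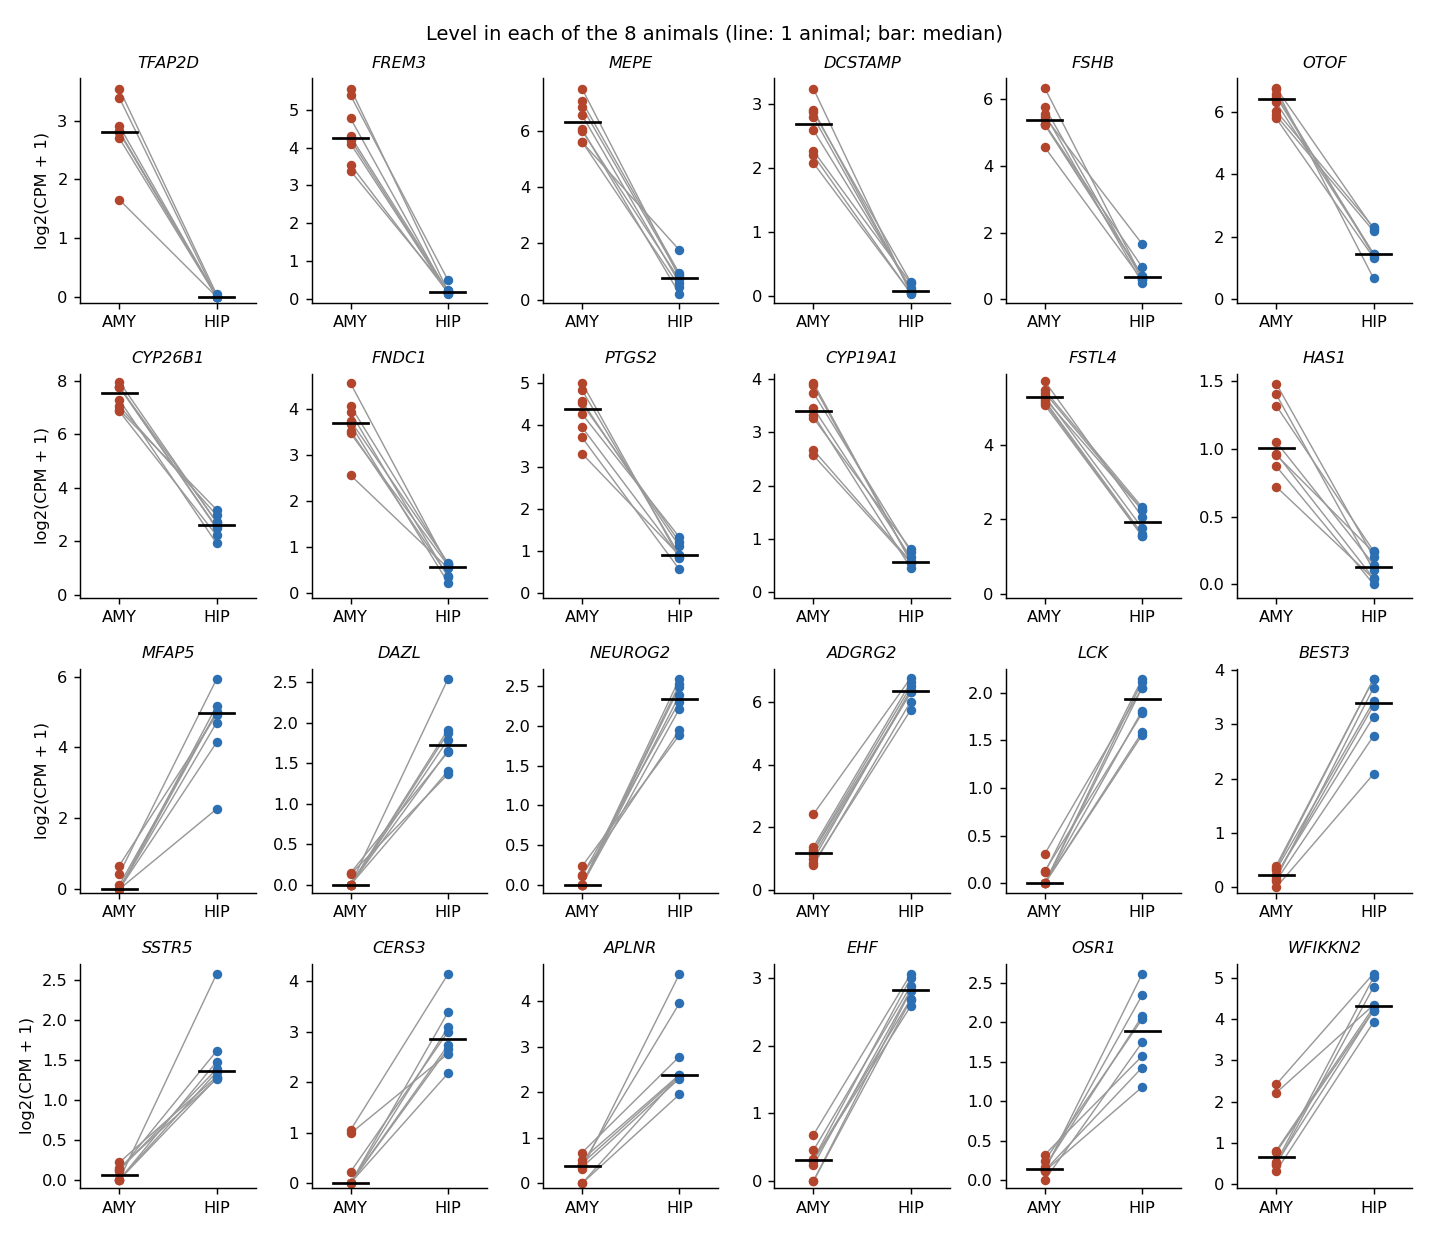
The level of each of the 24 named genes, as log2 of CPM + 1 on the vertical axis, in the amygdala and in the hippocampus sum of 8 animals, with a line joining the values of 1 animal and a bar at the median. No line changes direction in any panel, which the rule for naming these genes required. The HIP values of TFAP2D and the AMY values of DAZL lie at or near 0.

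The levels of the called genes were also read in the 14 other region groups of the table. Of the 451 genes higher in HIP, 135 (29.9%) had their highest mean in HIP, and of the 500 genes higher in AMY, 79 (15.8%) had it in AMY. Among all genes tested, 4.07% were highest in HIP and 4.10% in AMY, and the choice of the called genes favours their own structure by construction. The other AMY genes peaked in many places, with 52 in the striatum, 50 in the cerebral cortex and 49 each in the thalamus and the pituitary. These are 10.4%, 10.0%, 9.80% and 9.80% of the 500, beside 5.30%, 4.54%, 4.21% and 20.0% of all genes tested. DCSTAMP had a mean of 5.46 ± 1.80 CPM (SD) in AMY and no more than 0.142 ± 0.0435 CPM in any other group. TFAP2D had means of 6.69 ± 2.62 CPM in AMY and 5.77 ± 2.73 CPM in the entorhinal and perirhinal cortex (PA), which lie within their spread, and at no more than 0.0973 ± 0.0379 CPM elsewhere.

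FREM3 and PTGS2 were higher in the cerebral cortex (51.3 ± 8.85 and 41 ± 8.46 CPM) than in AMY (23.8 ± 14 and 20.0 ± 7.74 CPM). FSTL4 was at 39.8 ± 5.99 CPM in AMY and 106 ± 11.1 CPM in the cerebellum. Its means in the cerebral cortex and the olfactory bulb (74.2 and 73.5 CPM) were also above AMY. HAS1 was at 1.2 ± 0.429 CPM in AMY and 5.76 ± 2.25 CPM in the hypothalamus, its highest group. MEPE had means of 94.3 ± 47.1 CPM in AMY, 81.5 ± 50.6 in PA and 65.9 ± 16.7 in the cerebral cortex. These overlap within their SD, as do the AMY and PA means of FNDC1. OTOF was at 99.3 ± 21.1 CPM in the striatum and 82.5 ± 21 CPM in AMY, which overlap within their SD. CYP26B1 had its highest mean in AMY (183 ± 54.6 CPM), followed by the cerebellum (83.7 ± 20.6 CPM). Among the HIP genes, MFAP5 was at 30.0 ± 16.6 CPM in HIP and at no more than 0.323 ± 0.486 CPM in any other group, and BEST3 at 9.61 ± 3.72 against no more than 0.606 ± 0.202 CPM. ADGRG2 followed with 29.7 ± 8.00 CPM in the pituitary as its second highest group. SSTR5 (pituitary), OSR1 (olfactory bulb) and APLNR (medulla oblongata) peaked outside HIP.

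**Figure D3:**
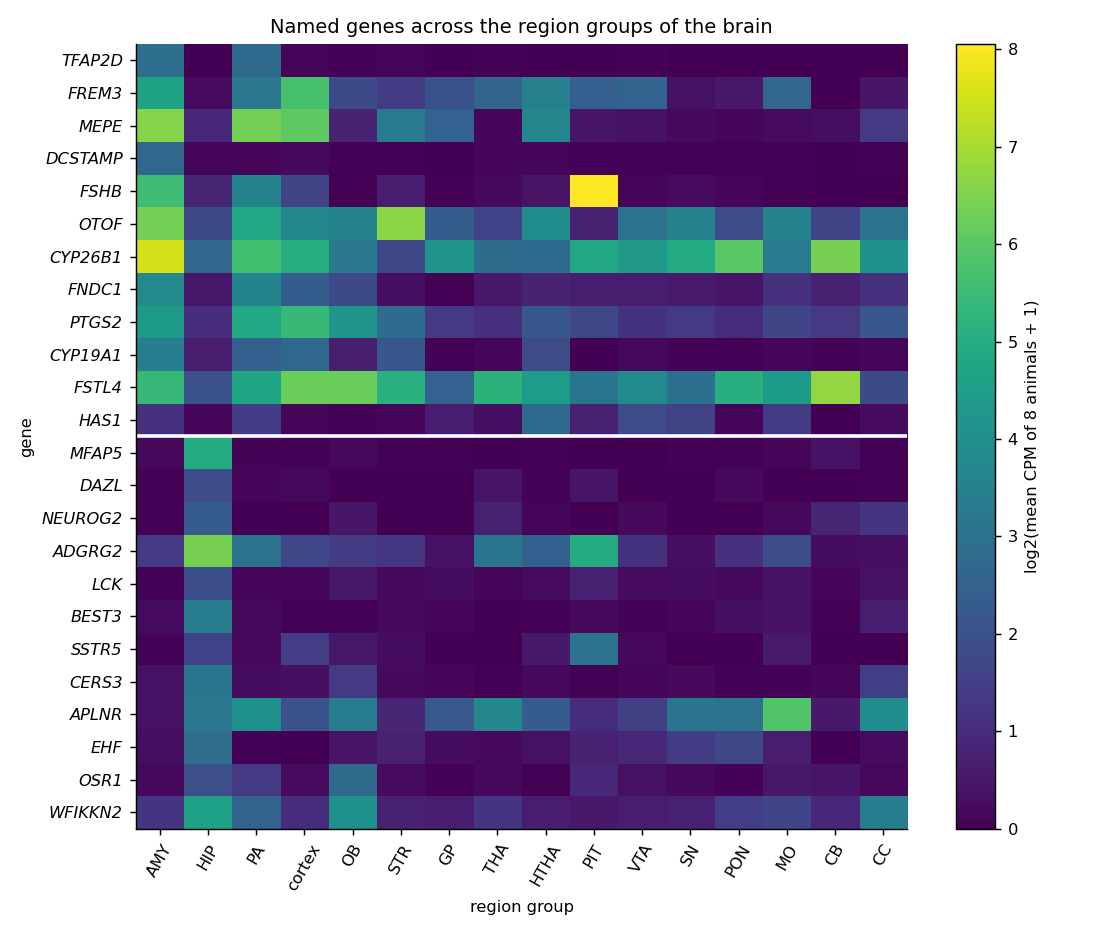
Mean level over 8 animals, as log2 of mean CPM + 1 (colour), of the 12 genes named for AMY (above the white line) and the 12 named for HIP (below it) in 16 region groups (PA, entorhinal and perirhinal cortex; OB, olfactory bulb; STR, striatum; GP, globus pallidus; THA, thalamus; HTHA, hypothalamus; PIT, pituitary; VTA, ventral tegmental area; SN, substantia nigra; PON, pons; MO, medulla oblongata; CB, cerebellum; CC, corpus callosum). DCSTAMP is bright in AMY alone and MFAP5 in HIP alone, while FSHB is brightest in the pituitary and FREM3 in the cortex.

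Markers of each structure were read next. Their lists were chosen with earlier results of these data known, so they are no independent check of the labels. Of 17 tested markers of amygdala neurons, 10 were higher in AMY, 2 higher in HIP and 5 not called, with a median log2FC of 1.46. Beside TFAP2D, OTOF and CYP26B1, the 10 held NR2F2 (2.65 ± 0.13), PRKCD (2.34 ± 0.14), a kinase that marks neurons of the lateral central nucleus, CDH13 (2.16 ± 0.22), MEIS2 (2.03 ± 0.21), FOXP2 (1.61 ± 0.32), GPR101 (1.46 ± 0.46) and LMO3 (1.4 ± 0.15). PRKCD was at 23.8 to 57.9 CPM in AMY (median 38.9) and 6.02 to 10.9 CPM in HIP (median 7.69). Against the list, ZIC1 (-1.50 ± 0.12) and SYT10 (-2.38 ± 0.24) were higher in HIP.

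Of 19 tested markers of hippocampal fields, 7 were higher in HIP and 1 higher in AMY, with a median log2FC of -0.92. PROX1, the factor that keeps the identity of granule cells, was at 9.26 to 36.1 CPM in HIP (median 26.1) and 0.238 to 4.15 CPM in AMY (median 2.77), with log2FC -3.29 ± 0.29 SE, FDR = 1e-05. Its medians were 32.5 CPM in DG, 20.8 CPM in CA1 and 19.8 CPM in CA3. PROX1 was also high outside HIP, with a mean of 37.1 ± 6.4 CPM (SD) in the corpus callosum and 21.6 ± 8.16 CPM in the thalamus. FIBCD1 and POU3F1, markers of CA1 pyramidal cells, had medians of 2.40 CPM in DG, 31.4 CPM in CA1 and 36.9 CPM in CA3 and of 0.113 CPM in DG, 2.80 CPM in CA1 and 4.42 CPM in CA3, with DG medians below those of CA1 and CA3. Single libraries crossed this order, since FIBCD1 ran from 0.736 to 16.3 CPM in DG, 3.40 to 55.7 in CA1 and 3.88 to 74.1 in CA3. The pieces labelled DG, CA1 and CA3 were thus not separate in FIBCD1, and comparisons with 1 sub-region below are with the pieces as labelled. DSP, listed as a granule cell marker, went the other way, at 1.06 to 3.79 CPM in AMY (median 2.44) and 0.150 to 0.570 CPM in HIP (median 0.334), with log2FC 2.87 ± 0.33 SE, FDR = 7.19e-05. The remaining members higher in HIP were ZBTB20 (-2.04 ± 0.38), GRIK4 (-1.27 ± 0.11), ST18 (-1.25 ± 0.12) and TRPS1 (-1.08 ± 0.20).

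AMY was next set against each hippocampal sub-region, to see which differences held for all 3. In one fit of 32 libraries and 15061 genes, AMY was higher than DG for 867 genes (5.76%) and lower for 663 (4.4%). Against CA1, 379 were higher (2.52%) and 374 lower (2.48%), and against CA3, 472 were higher (3.13%) and 424 lower (2.82%). Against all 3 at once, 300 genes were higher in AMY (1.99%) and 269 lower (1.79%). The 3 comparisons share the AMY libraries. Of the 500 genes higher in AMY than the sum, 297 were called against all 3 sub-regions, 120 against 2, 40 against 1 and 1 against none, and 42 did not pass the filter of this fit. Of the 451 genes higher in HIP, 258 were called against all 3, 117 against 2 and 73 against 1, and 3 did not pass the filter.

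Most genes called against a single sub-region were called against DG, with 427 higher and 311 lower in AMY, where the counts were 17 and 26 for CA1 alone and 30 and 49 for CA3 alone. CAMK1G, a calcium/calmodulin-dependent kinase, was at 63.2 to 103 CPM in AMY, 4.19 to 20.0 CPM in DG and 28.9 to 85.5 CPM in CA1. The natriuretic peptide gene NPPA was lower in AMY than CA3 alone, with medians of 3.83 CPM in AMY, 4.73 in DG, 4.64 in CA1 and 16.8 in CA3. HHIP, a binder of hedgehog proteins, was also lower than CA3 alone (log2FC -1.84). AMY was called both higher than a sub-region and lower than another for 3 genes. None of them was called against the sum, and all are named here after their values were seen. NTS, the precursor of the peptide neurotensin, had medians of 0.233 CPM in DG, 2.48 in AMY and 6.56 in CA1, and its CA1 libraries ran from 0.227 to 25.8 CPM. The others were MPPED1 and CDKN1C, a cell cycle inhibitor.

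**Figure D4:**
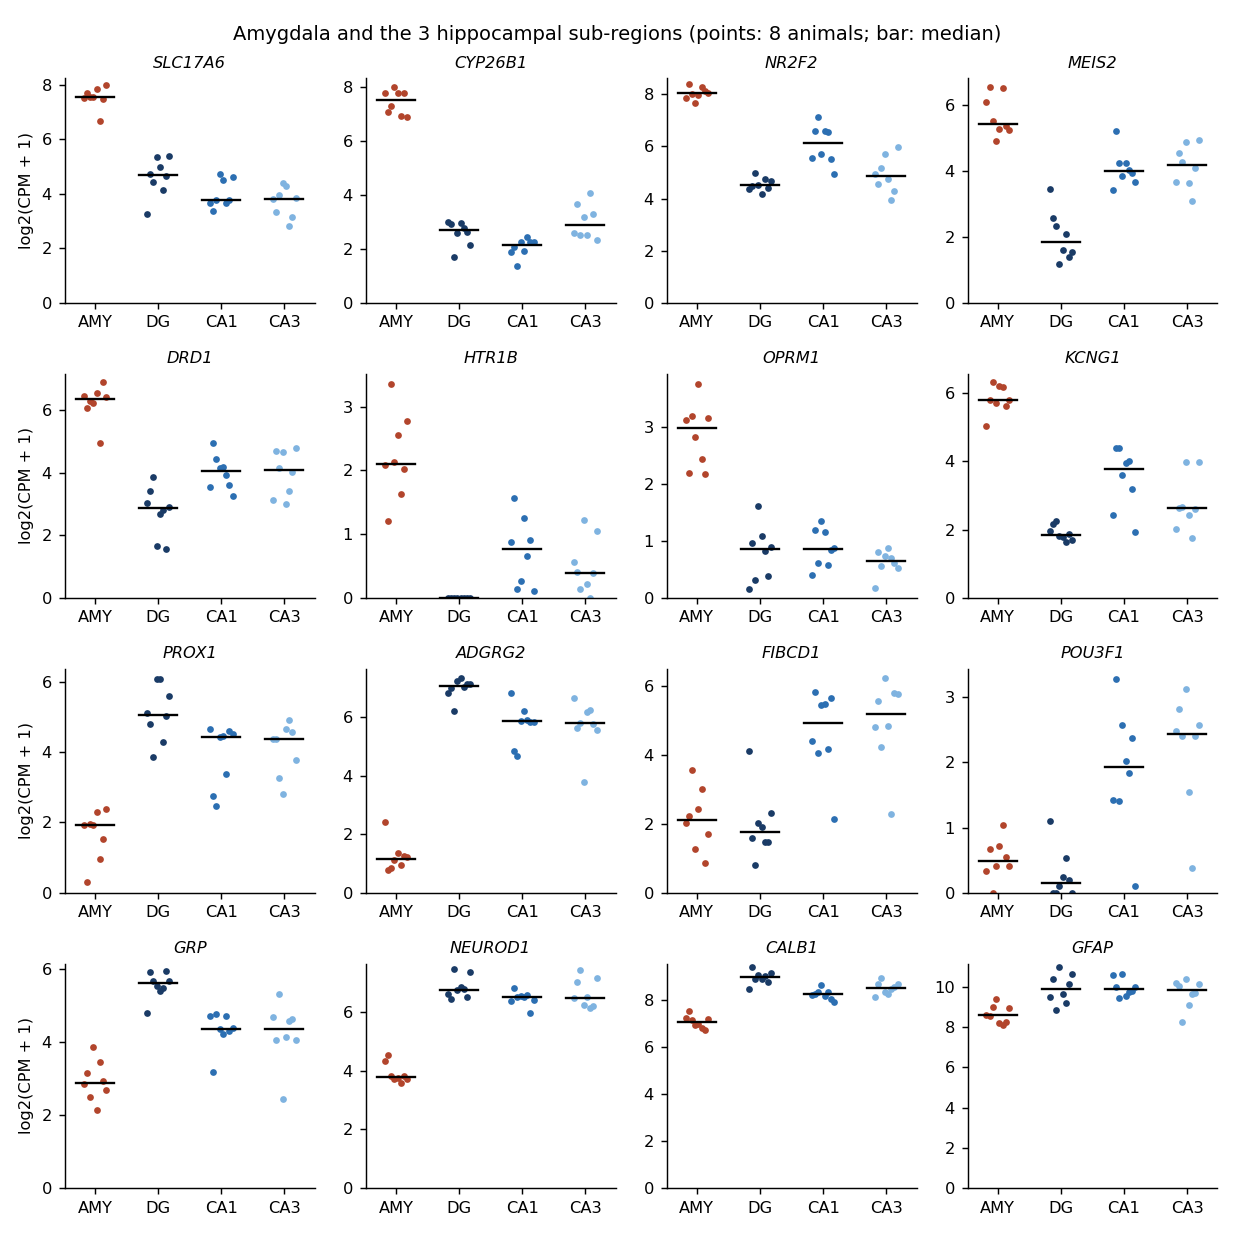
Level of 16 genes, as log2 of CPM + 1 on the vertical axis, in the amygdala (AMY) and in DG, CA1 and CA3, with 1 point for each of 8 animals and a bar at the median. NR2F2 and KCNG1 are next highest in CA1, HTR1B has no count in DG, the FIBCD1 and POU3F1 medians are lower in DG than in CA1 and CA3, and PROX1 is high in all 3 hippocampal sub-regions.

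Forebrain transcription factors were called equally on both sides. Of 44 tested, 9 were higher in AMY and 9 higher in HIP (median log2FC -0.07). NR2F2, known from caudal ganglionic eminence and amygdala development, was at 201 to 337 CPM in AMY (median 263) and 27.2 to 64.7 CPM in HIP (median 43), with log2FC 2.65 ± 0.13 SE, FDR = 1.83e-07. Within the hippocampus it was nearest to AMY in CA1, with 21.7 CPM in DG, 72.7 CPM in CA1 and 27.9 CPM in CA3. MEIS2, a homeobox factor of the striatal and amygdala lineage, was at 29 to 92.5 CPM in AMY (median 42.4) and 9.55 to 21.8 CPM in HIP (median 11.6), with log2FC 2.03 ± 0.21 SE, FDR = 2.85e-05, and its DG median was 2.62 CPM. TSHZ2 (2.59 ± 0.38) was the fourth factor named for AMY after TFAP2D.

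Among the factors higher in HIP, NEUROD1, which drives the maturation of granule neurons, was at 76 to 149 CPM in HIP (median 94.2) and 11.1 to 22.2 CPM in AMY (median 12.8), with log2FC -2.85 ± 0.15 SE, FDR = 2.98e-07. Its levels in the 3 sub-regions were alike, at 108 CPM in DG, 90.9 CPM in CA1 and 89.4 CPM in CA3. BCL11A, a zinc finger factor of cortical projection neurons, was at 54.4 to 89.7 CPM in HIP (median 59.7) and 7.55 to 17.4 CPM in AMY (median 10.9), with log2FC -2.50 ± 0.11 SE, FDR = 7.64e-08. CUX2, which marks upper cortical layers, was higher in AMY, at 5.72 to 24.8 CPM in AMY (median 16.3) and 2.26 to 5.99 CPM in HIP (median 4.70), with overlapping ranges and log2FC 1.74 ± 0.15 SE, FDR = 1.03e-05.

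Among the genes that define the transmitter of a neuron, a glutamate transporter differed most. SLC17A6 (VGLUT2), which loads glutamate into vesicles of subcortical neurons, was at 101 to 251 CPM in AMY (median 188) and 11 to 28.8 CPM in HIP (median 16.1), with log2FC 3.42 ± 0.14 SE, FDR = 5.55e-08. It was the only one of 14 tested genes of glutamate neurons higher in AMY, and NEUROD6 (-1.53 ± 0.23) and NPTX2 (-1.17 ± 0.11) were higher in HIP, the latter not called with HIP without DG (log2FC -0.94). Of 19 tested genes of GABA neurons, 4 were higher in AMY and 1 higher in HIP (median log2FC 0.54). SNCG, gamma-synuclein, was at 262 to 425 CPM in AMY (median 304) and 66.5 to 96.1 CPM in HIP (median 75.7), with log2FC 2.07 ± 0.11 SE, FDR = 2.52e-07. NPY, neuropeptide Y, was at 49.6 to 101 CPM in AMY (median 74.8) and 20.6 to 51.7 CPM in HIP (median 26.6). SST, somatostatin, was at 83.2 to 239 CPM in AMY (median 151) and 42.9 to 113 CPM in HIP (median 56.2). Both were higher in AMY in 8 of 8 animals, with log2FC of 1.35 ± 0.08 and 1.12 ± 0.11, and the ranges overlapped. With HIP taken without DG, SST fell under the fold of a call (log2FC 0.97). CALB1, the calcium buffer calbindin, was higher in HIP (log2FC -1.53 ± 0.09 SE, FDR = 4.99e-07), with medians of 133 CPM in AMY, 500.2 CPM in DG, 299.6 CPM in CA1 and 365 CPM in CA3. NOS1 (log2FC 1.31 ± 0.45 SE, FDR = 0.0448) was higher in AMY in 6 of 8 animals. Its call was lost without animal 2, 4, 6, 7, 8 or 11 and with HIP without DG. Its log2FC was 0.99 without animal 4. In the other fits that lost the call it was 1.09 to 1.43, at an FDR of 0.0592 to 0.127.

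Neuropeptides and their receptors were called on both sides. Of 20 tested peptide genes, 3 were higher in AMY and 3 higher in HIP, and of 31 tested receptor genes, 9 were higher in AMY and 3 higher in HIP. Beside NPY and SST, the peptide gene TAC3 (neurokinin B) was higher in AMY, at 4.85 to 7.94 CPM in AMY (median 5.96) and 1.42 to 3.84 CPM in HIP (median 2.38). GRP, gastrin-releasing peptide, was at 24.4 to 39.3 CPM in HIP (median 27.1) and 3.42 to 13.5 CPM in AMY (median 6.42), with log2FC -2.09 ± 0.22 SE, FDR = 3.58e-05, and its DG median of 48.1 CPM was above the medians of CA1 and CA3 (19.7 and 19.8 CPM). NMB (-2.04 ± 0.27), neuromedin B, and PDYN (-1.25 ± 0.21), prodynorphin, were also higher in HIP in all 8 animals.

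OPRM1, the mu opioid receptor, was at 3.52 to 12.5 CPM in AMY (median 6.87) and 0.187 to 1.44 CPM in HIP (median 0.658), with log2FC 3.19 ± 0.33 SE, FDR = 2.91e-05. MCHR1, a receptor of melanin-concentrating hormone, was at 13 to 21.2 CPM in AMY (median 19.2) and 1.66 to 5.36 CPM in HIP (median 2.63), with log2FC 2.56 ± 0.18 SE, FDR = 2.31e-06. PTH2R (2.50 ± 0.22), a receptor of tuberoinfundibular peptide, and MC4R (2.34 ± 0.31), the melanocortin receptor known for appetite, were separate from HIP in every library. The others higher in AMY were CCKBR (2.03 ± 0.08), CALCR (1.98 ± 0.16), NTSR1 (1.46 ± 0.18), GRPR (1.23 ± 0.42) and CRHR1 (1.20 ± 0.12), the receptors of cholecystokinin, calcitonin, neurotensin, GRP and corticotropin-releasing hormone. GRPR was low, with at most 1.64 CPM in AMY and an FDR of 0.0454, and higher in AMY in 7 of 8 animals. On the side of HIP were SSTR5, NPFFR2, a receptor of neuropeptide FF at 6.03 to 17 CPM in HIP (median 9.23) and 0 to 1.94 CPM in AMY (median 0.731), and AVPR1A (-2.06 ± 0.32), the vasopressin receptor.

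Receptors of monoamines and acetylcholine were called equally on both sides. Of 30 tested, 8 were higher in AMY and 8 higher in HIP (median log2FC -0.19). All 3 dopamine receptors tested were higher in AMY, and DRD3 and DRD4 did not pass the filter on low counts. DRD1 was at 30.5 to 119.9 CPM in AMY (median 81.3) and 8.51 to 22 CPM in HIP (median 12.1), with log2FC 2.61 ± 0.25 SE, FDR = 2.02e-05. DRD2 was at 2.85 to 15.1 CPM in AMY (median 9.21) and 1.72 to 9.79 CPM in HIP (median 2.50), with log2FC 1.23 ± 0.28 SE, FDR = 0.00661. DRD1 separated the structures in every library, and DRD2 overlapped and was higher in AMY in 7 of 8 animals. DRD5 was at 0.652 to 3.49 CPM in AMY (median 2.10) and 0.0593 to 1.21 CPM in HIP (median 0.558), with log2FC 1.89 ± 0.35 SE, FDR = 0.00167. The serotonin receptor HTR1B was at 1.31 to 9.24 CPM in AMY (median 3.27) and 0.0618 to 0.811 CPM in HIP (median 0.402), with log2FC 3.24 ± 0.46 SE, FDR = 0.000286. It had no count in the 8 DG libraries and 363 counts in AMY, at least 125-fold higher in AMY against a floor of 3 counts over the 8 DG libraries. HTR2C (1.15 ± 0.18) was higher in AMY, whereas HTR1A (-1.42 ± 0.33) and HTR4 (-1.60 ± 0.17) were higher in HIP. HTR1A had its highest sub-region median in CA3, at 38.6 CPM.

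Nicotinic receptor subunits were higher in HIP for CHRNA2 (-2.61 ± 0.31), CHRNA3 (-1.78 ± 0.23), CHRNA5 (-1.63 ± 0.19) and CHRNB4 (-2.78 ± 0.36), and higher in AMY for CHRNA6 (2.63 ± 0.25). CHRNA3, CHRNA5 and CHRNB4 are known as neighbours in the genome, and the options for counting overlapping genes are not given, so their counts may not be separate. CHRNB4 was at 1.14 to 4.05 CPM in HIP (median 2.41) and 0.0816 to 0.968 CPM in AMY (median 0.272). CHRNA6 was low in both structures, with at most 3.10 CPM in AMY. CHRM4 (1.27 ± 0.15), a muscarinic receptor, and ADRA2C (1.82 ± 0.14), an alpha-2 adrenergic receptor, were higher in AMY. ADRA1A (-1.4 ± 0.28), an alpha-1 adrenergic receptor, was higher in HIP.

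Of 25 tested subunits of glutamate receptors, 6 were higher in AMY and 1 higher in HIP (median log2FC 0.21). GRIN3A, an NMDA receptor subunit that lowers calcium entry, was at 78.8 to 177 CPM in AMY (median 100.1) and 28.4 to 50.1 CPM in HIP (median 37.5), with log2FC 1.52 ± 0.17 SE, FDR = 6.61e-05. GRIK4, a kainate receptor subunit of CA3, was the one subunit higher in HIP, with 28.1 CPM in DG, 44.4 CPM in CA1 and 43.8 CPM in CA3 and 15.8 CPM in AMY. GRIK3 (1.18 ± 0.35), GRM8 (1.02 ± 0.15), GRM6 (1.00 ± 0.22) and GRIA4 (1.00 ± 0.06) were higher in AMY. GRM8, GRM6 and GRIA4 were just past the fold of 2, and the calls of GRM6 and GRIA4 were not followed under other settings. GRM8 lost its call without animal 4 or 10, without animals 3, 4, 8 and 10 together (log2FC 0.99), under the study's detection rule (1.00, just under the threshold) and with HIP without DG (0.80). GRIK3 was higher in AMY in 6 of 8 animals, and its call was lost without animal 2, 4, 7 or 11. Its log2FC was 0.89 without animal 4 and 1.04 to 1.16 without animal 2, 7 or 11, the latter at an FDR of 0.0589 to 0.0754. Of 12 tested GABA-A receptor subunits, GABRA3 was higher in AMY and GABRA5 and GABRG3 higher in HIP. GABRG3 lost its call without animal 11, with HIP as an equally weighted mean (log2FC -0.94) and with HIP without DG (-0.62). GABRA5, known for tonic inhibition of pyramidal cells, was at 467 to 656 CPM in HIP (median 555) and 196 to 319 CPM in AMY (median 253), with log2FC -1.15 ± 0.06 SE, FDR = 3.24e-07. GABRA3 was at 26.5 to 66.9 CPM in AMY and 9.23 to 22.6 CPM in HIP (median 16.9), with log2FC 1.34 ± 0.19 SE, FDR = 0.00026.

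Voltage-gated potassium channels split 4 against 4 among 27 tested. KCNG1, a silent subunit that modifies Kv2 channels, was at 31.5 to 80.3 CPM in AMY (median 54.7) and 3.44 to 9.95 CPM in HIP (median 7.38), with log2FC 3.03 ± 0.12 SE, FDR = 4.71e-08. Its medians were 2.58 CPM in DG, 12.7 CPM in CA1 and 5.15 CPM in CA3. KCNV1 (2.04 ± 0.22) and KCNS1 (1.78 ± 0.39), which are silent subunits too, and KCNH7 (2.46 ± 0.26), an ERG channel, were higher in AMY. KCNS3 (-1.77 ± 0.12), KCNH4 (-1.74 ± 0.17), KCNH1 (-1.26 ± 0.41) and KCNG2 (-1.07 ± 0.11) were higher in HIP. Silent subunits were therefore called in both directions. KCNH1 had an FDR of 0.0381 and lost its call without animal 2, 3, 6, 7, 8, 10 or 11, with HIP without DG and with no block. Its log2FC in these fits was -1.39 to -1.04, at an FDR of 0.0532 to 0.0860.

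Of 13 tested steroid and retinoid receptors and enzymes, CYP19A1 alone was higher in AMY. RXRG, a retinoid X receptor, was at 11.5 to 22.5 CPM in HIP (median 13.9) and 1.66 to 2.86 CPM in AMY (median 2.52), with log2FC -2.67 ± 0.13 SE, FDR = 2.16e-07. NR3C2, the mineralocorticoid receptor known for its high level in hippocampal neurons, was at 24 to 69.4 CPM in HIP (median 58.6) and 8.11 to 25.2 CPM in AMY (median 21.1), with log2FC -1.66 ± 0.26 SE, FDR = 0.000541. It was higher in HIP in 8 of 8 animals, and the ranges overlapped. FKBP5 (log2FC -1.05 ± 0.18 SE, FDR = 0.00101), a chaperone of steroid receptors, was higher in HIP in 7 of 8 animals and lost its call without animal 10, without animals 3, 4, 8 and 10 together (log2FC -0.96), with HIP as an equally weighted mean (log2FC -0.98) and with HIP without DG (-0.80). The glucocorticoid receptor NR3C1 (log2FC 0.39 ± 0.18 SE, FDR = 0.118) and the oestrogen receptor ESR1 (log2FC 0.99 ± 0.29 SE, FDR = 0.0228) did not pass the thresholds of the call.

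Cadherins, which hold neurons of like type together, had 8 of 28 tested members higher in AMY and 1 higher in HIP, beside 3.25% and 2.93% of all genes (median log2FC 0.36). CDH13 was at 45.7 to 123 CPM in AMY (median 113) and 10.7 to 27.8 CPM in HIP (median 21.7), with log2FC 2.16 ± 0.22 SE, FDR = 2.37e-05. PCDH11X (2.32 ± 0.42) had the largest log2FC of the list. CDH22 (1.65 ± 0.13) and CDH6 (1.49 ± 0.23) were also higher in AMY, and PCDH18 (-1.43 ± 0.14) was the one member higher in HIP.

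Immediate early genes, which neurons switch on within minutes of activity, were called in both directions among 11 tested. EGR2 (1.88 ± 0.19), NPAS4 (1.94 ± 0.29), NR4A1 (1.48 ± 0.20) and FOSB (1.08 ± 0.21) were higher in AMY in all 8 animals, and FOSL2 (-1.53 ± 0.20) and NR4A2 (-1.28 ± 0.14) were higher in HIP. NR4A1 was at 7.36 to 41 CPM in AMY (median 20.3) and 4.79 to 12.2 CPM in HIP (median 5.97). FOSB lost its call without animal 4 or 7 and with HIP without DG (log2FC 0.99). The medians of NPAS4 were 4.12 CPM in AMY, 0.492 CPM in DG, 1.59 CPM in CA1 and 2.02 CPM in CA3. Among 14 tested genes of immature neurons and dividing cells, STMN1 (1.23 ± 0.09), stathmin, was higher in AMY and NEUROD1 higher in HIP.

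**Figure D5:**
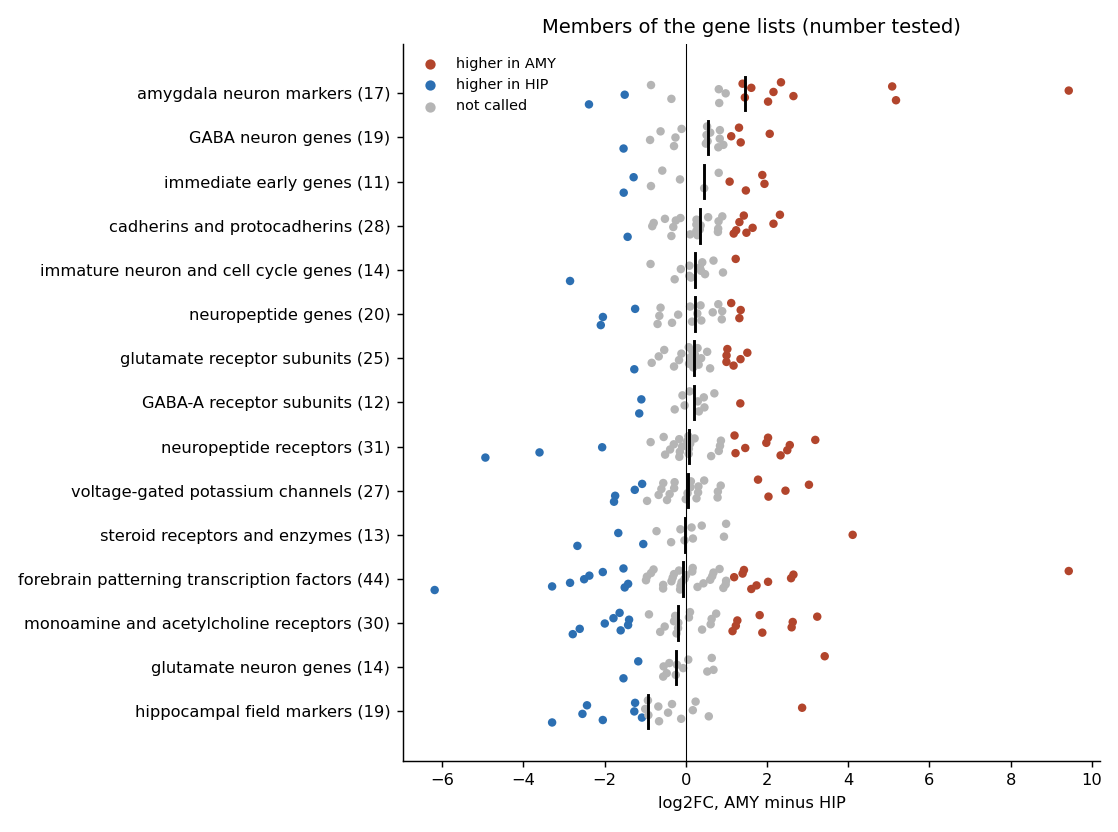
The log2FC, AMY minus HIP (horizontal axis), of every tested member of 15 gene lists, with red for genes higher in AMY, blue for genes higher in HIP, grey for genes not called and a black bar at the median of the list. The medians run from -0.92 for hippocampal field markers to 1.46 for amygdala neuron markers, and most lists hold members on both sides.

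Markers of other cell types the pieces could hold were measured in the same libraries. None of the 10 tested neuron, 7 oligodendrocyte, 6 microglia, 9 endothelial or 6 choroid plexus markers was called between AMY and HIP. The neuron markers had a median log2FC of 0.28 and a highest of 0.67, under the fold of a call, and 3 of the 10 had libraries that did not overlap between AMY and HIP. The summed level of the oligodendrocyte markers was 2876 to 4755 CPM in AMY, 1559 to 3192 in DG, 3433 to 8718 in CA1 and 4033 to 9776 in CA3, lower in DG than in the CA fields and largely lower than in AMY. That of the neuron markers was 9243 to 12529 CPM in AMY, 6139 to 8905 in DG, 9173 to 12406 in CA1 and 7900 to 10697 in CA3. Microglia markers summed to 96.2 to 174 CPM in AMY, 88.5 to 169 in DG, 107 to 215 in CA1 and 119 to 284 in CA3. Endothelial markers summed to 199.9 to 288 CPM in AMY, 165 to 231 in DG, 199 to 287 in CA1 and 180.5 to 346 in CA3. The choroid plexus markers summed to 12.7 to 42.6 CPM in AMY, 11.8 to 70.2 in DG, 8.91 to 28.5 in CA1 and 13.2 to 83 in CA3. The part of these levels in the differences above, those with DG in particular, was not tested.

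GFAP was the one astrocyte marker of 10 that was called, at 481 to 1687 CPM in HIP (median 1043) and 279 to 672 CPM in AMY (median 383), with log2FC -1.26 ± 0.17 SE, FDR = 0.000191, higher in HIP in 7 of 8 animals. VCAN, of 6 tested markers of oligodendrocyte precursors, was higher in HIP in all 8 (log2FC -1.61 ± 0.06 SE, FDR = 5.55e-08). SLC47A1, of 8 tested markers of meninges and fibroblasts, was at 71.2 to 147 CPM in HIP (median 109) and 10.1 to 17.6 CPM in AMY (median 14.2), while SLC22A6 (1.02 ± 0.13) was higher in AMY and the other 6 were not called. SLC22A6 lost its call without animal 4, 7 or 8, without animals 3, 4, 8 and 10 together (log2FC 0.85), under the study's detection rule (1.00, just under the threshold) and with HIP without DG (0.82). With SLC47A1 among them, the 8 markers summed to 67.4 to 86.7 CPM in AMY, 199 to 235 in DG, 117 to 147 in CA1 and 113 to 191 in CA3. Of 11 tested markers of striatal projection neurons, DRD1 and DRD2 were higher in AMY and RXRG higher in HIP. The 11 summed to 464 to 609 CPM in AMY, 283 to 385 in DG, 306 to 382 in CA1 and 287 to 381 in CA3. Of 10 tested markers of neocortical projection neurons, CUX2 and FOXP2 were higher in AMY and 2 were higher in HIP, among them PCP4 (-1.60 ± 0.26). The lowest log2FC of the 10 was -2.37, in a member not named here. Of 7 tested ependymal markers 1 was higher in AMY, and the 1 tested blood marker was not called. Whether neighbouring tissue was taken with a piece was not tested.

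Whether the difference between the structures depended on age stage or sex was tested by the interaction with the region, with 4 animals against 4. Neither test called a gene (0.0% of 15402 each) in edgeR, with 279 genes for age (1.81%) and 331 for sex (2.15%) at an unadjusted p under 0.05. DESeq2 also called 0 genes, with 158 (1.03%) and 212 (1.38%). Where no gene differs, the share expected under this limit is 0.05. Leaving out 1 animal at a time also gave 0 calls in edgeR. At an unadjusted p under 0.05 it gave 170 to 914 genes for age (1.11% to 5.93%) and 186 to 1673 for sex (1.21% to 10.9%). The most were found without animal 10 in both. The smallest FDR for age was 1.00 in the edgeR fit of all animals, 0.671 in DESeq2 and 0.326 to 1.00 with 1 animal left out, and that for sex was 0.953, 0.399 and 0.424 to 1.00. By the naming rule, ROR2, a receptor of Wnt ligands, had a log2 difference between AMY and HIP of 0.62 to 1.05 in mid-aged and 2.07 to 2.84 in young animals. ALCAM, a cell adhesion molecule, had differences of 0.68 to 1.03 and 1.34 to 1.54, and CD44, a hyaluronan receptor, of -2.72 to -2.09 and -1.81 to -0.79. For sex, the 3 genes were CNTN6, a contactin (1.28 to 1.74 in females and 0.23 to 0.90 in males), LAMA3, a laminin chain (-2.21 to -1.72 and -1.69 to -0.38), and CHRNA2 (-1.96 to -1.14 and -2.72 to -2.19). These 6 genes were chosen for the smallest FDR, and none passed the adjustment over all genes tested.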

How the data were processed

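Brain sub-regions, of which the gene count table holds 51, were dissected from 8 rhesus macaques, and libraries were made after removal of ribosomal RNA. The authors deposited raw counts per gene, made, per the labels and the study's methods, by trimming the samples of poor read quality with Trim Galore 0.4.4, alignment with HISAT2 2.0.5 to the Mmul 8.0.1 genome and counting with HTSeq 0.6.1 on Ensembl genes. How HTSeq treated strand and overlapping genes is not given in the sources used here, so antisense and overlapping genes may share counts. Of 30807 genes in the table, 17572 had a symbol and 2340 of these shared one with another gene.

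Counts of DG, CA1 and CA3 were summed within each animal and set against AMY with edgeR 4.0.16 (filterByExpr, TMM scaling, quasi-likelihood F test, animal as a block, Benjamini-Hochberg FDR) in R 4.3.3. A call needed an FDR under 0.05 and a fold above 2, and SE was the log2FC divided by the root of F. The sub-regions were fitted in one model of 32 libraries, and age stage and sex as interactions with the region. The pairing comes from the labels, which give AMY and HIP of the same animal 1 number. The deviations of the 2 structures from their means correlated within 7 of 8 animals above 0.1 (range -0.09 to 0.70). For 5 of the 8 animals the correlation within the animal was higher than with any other animal. With the animal as a block, p-values measure how far the difference between structures varies between animals, each with 1 piece per sub-region. In the model of 32 libraries this spread is 1 estimate shared by all sub-regions. On simulated counts of 15334 genes with 200 changed 4-fold, the test called 195 of the 200 and 0 others. These counts were drawn independently from 1 mean per gene, with no difference between animals and no pairing. They therefore do not give the error rate in the real libraries or the recovery of smaller folds. Counting intervals (95%) cover counting error only.

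The comparison and the gene lists were chosen with earlier results of these data known. Named were the 12 genes per direction with the largest log2FC that had a symbol, the same direction in 8 animals and 1 CPM or more on average in the higher structure, the up to 4 largest called genes per list and direction, defining markers, and the 3 genes of smallest FDR per interaction. Further members of the receptor and steroid lists were named after their values were seen. Alternatives were DESeq2 1.42.0, its size factors, other filters, no block, other definitions of HIP and each animal left out. No sequence is printed, and some called genes are counted but not reported by name here.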

Additional observations from a re-analysis of the deposited data

Results flagged for a closer look

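Dixon's test was run on 41 groups of 8 values. They were the 24 genes of the animal plot, in AMY or HIP where any library reached 1 CPM. The others were the total counts and correlations of each sub-region's libraries. In 7 groups a value was set far from the other 7. For independent groups of normal values, chance does this in about 1 in 20. The values here were not transformed and come from the same 8 animals, so that rate need not hold. In HIP, animal 6 was high in MEPE (2.40 CPM, next 0.909) and in FSHB (2.16 CPM, next 0.952), and both stayed below every AMY library. Animal 3 was high in HIP for DAZL (4.83 CPM, next 2.78) and CERS3 (16.7 CPM, next 9.46), and animal 7 for SSTR5 (4.94 CPM, next 2.05). In AMY, animal 2 was high in ADGRG2 (4.33 CPM, next 1.57). The CA3 library of animal 4 had the lowest median correlation with the other CA3 libraries (0.944, next 0.958).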

How the results depend on the processing

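The counts of genes called depended mainly on the fold required. At a fold above 4 the counts were 122 (AMY) and 112 (HIP), and at any fold 2462 and 2511. DESeq2 gave 503 and 463, its size factors 501 and 448, no filter 687 and 599, the study's detection rule 710 and 641, and HIP without DG 397 and 366. Paired by animal, the counts were 500 and 451, and with no replicate block 503 and 428. Against all 3 sub-regions they were 300 and 269, and 275 and 262 with no replicate block. Leaving out 1 animal gave 484 to 536 and 437 to 480 against the sum, and 279 to 332 and 244 to 291 against all 3. Without animals 3, 4, 8 and 10, chosen after seeing the data, the latter were 338 and 260. Of the 101 genes named by the rule, 85 were tested and called under all 16 alternatives, 6 were called wherever tested but had no value under 1 or more (CHRNA6, DAZL, HAS1, KCNS1, LCK and SSTR5), 10 lost the call under 1 or more (FKBP5, FOSB, GABRG3, GRIK3, GRM8, KCNH1, NOS1, NPTX2, SLC22A6 and SST), and none changed direction. HIP without DG ended the most calls, and the cause was not tested. KCNH1 also lost its call with no replicate block. Interactions gave 0 calls under each setting run. The calls of genes named outside the rule were not followed under the alternatives.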
